A study of Canis lupus familiaris with 13 samples.

Results

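The genes described here encode the proteasome, and were chosen by their gene symbols: each symbol that begins with PSM, a letter from A to G and a digit, on probe sets to which the array annotation gives 1 symbol. The rule found 39 genes on 61 probe sets, of 6540 genes and 23836 probe sets in all, and each gene was read by its probe set of highest mean signal over the 13 arrays. They comprised 7 alpha and 7 beta subunits of the core, 6 ATPases of the cap and 10 PSMD genes counted with the cap by symbol. Among these 10 are PSMD5 and PSMD10, which act in assembly of the cap's base. The rest were 4 activators, the inhibitor PSMF1, the assembly chaperones PSMG2 and PSMG3, and 2 genes that match the letters only. Those 2, PSMC3IP and PSME3IP1, encode proteins that bind other proteins and are no subunits, so 37 of the 39 belong to the proteasome by name. PSMC1, an ATPase of the cap, gave signals of 10.6 to 158.1, lay below the minimum signal set for testing and entered no test, which left 38 genes.

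The study measured total RNA from canine heart tissue on Affymetrix arrays, 1 array for each named heart. Control mongrels gave 3 arrays (P1, P4 and P9), and mongrels whose hearts had been paced, a way of producing heart failure with an implanted pacemaker, gave 3 (LV01, LV02 and LV04). Dilated cardiomyopathy (DCM), in which the ventricle widens and contracts weakly, was represented by 3 Dobermans (K, L and R) and 4 Boxers. No healthy Doberman or Boxer was included, so breed and disease cannot be told apart, and ages, the part of the heart and the rate and length of pacing are not given in the sources used here. The p-values measure the spread between these hearts.

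The proteasome degrades proteins that carry a chain of ubiquitin. Its core is a barrel of stacked rings, in which alpha subunits form the gate and some beta subunits carry the proteolytic sites. The cap binds ubiquitin, and its ring of ATPases unfolds the substrate and feeds it into the core. Activators can take the cap's place, and interferon replaces catalytic beta subunits by PSMB8 and its relatives, giving the immunoproteasome, which makes peptides for antigen presentation. In heart muscle the proteasome removes worn contractile proteins.

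Values are deposited array signals, and a change is a difference of group means of log2(signal + 16), so the change of a dim gene is understated. Each of the 6 comparisons between groups was tested with limma over 14302 probe sets, with the spread shared by all 4 groups; "rose" and "fell" mean an adjusted p under 0.05. Arrays differed in ways that touch several results. GAPDH has array controls at both ends of its transcript, and the 3′ over 5′ signal, which rises where RNA is broken or copied incompletely, reached 2.10 in Doberman L and 3.62 in Doberman R, against 0.967 to 1.09 on the other 11 arrays. The Dobermans also resembled each other least, with a mean correlation to the rest of their group of 0.789 to 0.844 over probe sets, against 0.947 to 0.969 in the other groups. Median signals were 142.3 to 145.8 in controls, 131.9 to 145.4 in Boxers and 207.2 to 219 in paced hearts. Doberman K had a median of 160, L of 234 and R of 219.2.

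**Figure D1:**
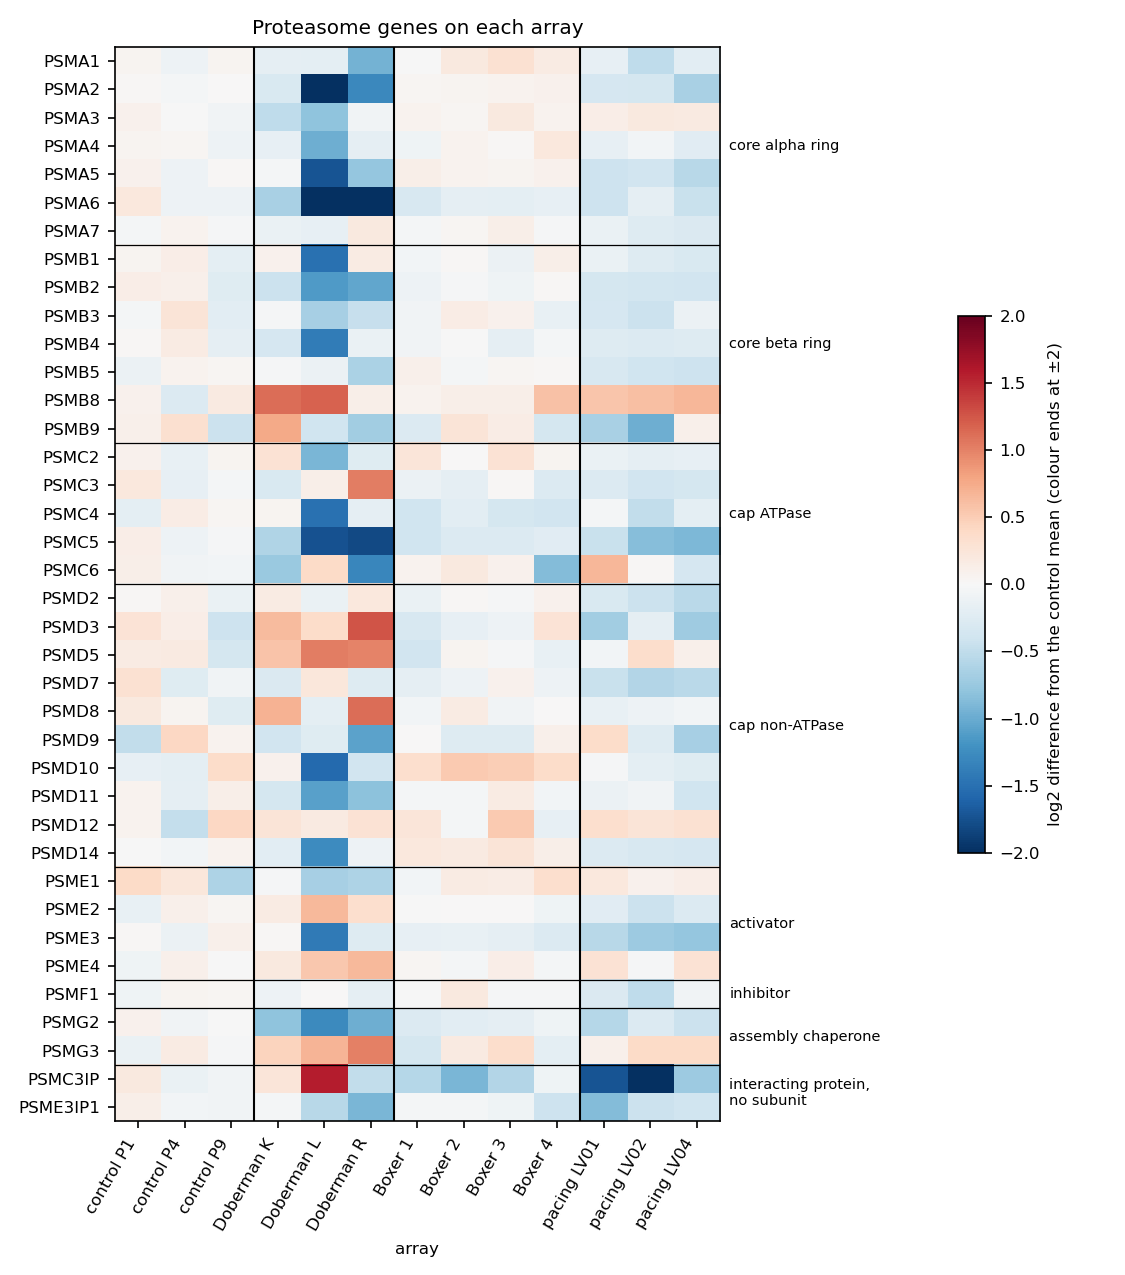
Colour shows the log2 difference of each proteasome gene (rows, grouped by role) from the mean of the 3 control arrays on each of the 13 arrays (columns). Dobermans L and R hold the deepest decreases, paced hearts show shallower decreases in most rows, and Boxers lie close to the controls.

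Doberman hearts had lower signals of most core subunits than control mongrels. Of the 38 genes tested, 6 fell and 3 rose, against 14.1% of all 5240 genes tested that fell and 11.9% that rose; that is 15.8% and 7.89% of the proteasome genes, so neither share stood far from the background. The median change of the proteasome genes was -0.42, beside 0.04 over all genes tested, and 27 of the 38 changes were negative. With quantile normalization the medians were -0.29 and -0.06, and with each array centred on its median signal -0.86 and -0.40. By the brightest probe set of each gene, all 7 alpha subunits had negative changes (median -0.46, 2 of them called). So had 6 of the 7 beta subunits (median -0.38, 1 called). PSMA7 had only -0.03 ± 0.15. Dimmer tested probe sets of PSMA3 (0.40 ± 0.29), PSMA4 (0.70 ± 0.47) and PSMB5 (0.25 ± 0.30) had positive changes, none passing. Those of PSMA6 were negative (-0.75 and -0.60). In the cap, 9 of 15 changes were negative, with a median of -0.29.

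PSMA6, an alpha subunit, had the largest decrease. Its signal was 3219.3, 2577.4 and 2580.7 in controls P1, P4 and P9, and 1771, 285.6 and 570.4 in Dobermans K, L and R. All 3 Dobermans lay below all 10 other hearts, and L and R lay far below K. The change was -2.04 ± 0.43 (SE), a 4.10-fold decrease, with an adjusted p of 0.0101 by limma. The same order of the Dobermans, K nearest the controls, held for PSMA2, another alpha subunit, with 4147.8, 3975.8 and 4072.4 in controls and 3274.6, 1004.1 and 1649.3 in Dobermans. The groups did not overlap, and PSMA2 fell by 1.20 ± 0.30 (limma, adjusted p 0.0163).

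PSMB2, a beta subunit without a proteolytic site, gave 6758.8, 6579.2 and 5179.6 in controls and 4561.4, 2775.4 and 2985.3 in Dobermans. The Dobermans were below every other heart, and the change was -0.87 ± 0.19 (limma, adjusted p 0.0112). PSMC5, an ATPase of the cap, gave 2535.3, 2154.5 and 2262.9 in controls against 1522.7, 679.1 and 650.3 in Dobermans. No Doberman reached the controls, and PSMC5 fell by 1.38 ± 0.27 (limma, adjusted p 0.00747). PSMD11, a scaffold subunit of the cap's lid, fell by 0.75 ± 0.20 (limma, adjusted p 0.0191), from 1882.4, 1581.4 and 1936.8 in controls to 1407.9, 834.9 and 1005.3 in Dobermans, without overlap. A further probe set of PSMD11 moved the opposite way: 501.7, 563.7 and 552.1 in controls and 861.1, 1284.8 and 1161.6 in Dobermans, a change of 0.99 ± 0.19 (limma, adjusted p 0.00753). The direction of PSMD11 therefore depends on the probe set.

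The assembly chaperone PSMG2, which helps build the alpha ring, gave 4107.8, 3703.2 and 3848.5 in controls and 2223.2, 1600.5 and 1964.8 in Dobermans. Here K lay closer to the other Dobermans than to the controls, and all 3 were below every other heart. PSMG2 fell by 1.02 ± 0.16 with the smallest adjusted p of the proteasome genes in this comparison (0.00441, limma).

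Among the genes that rose, PSMB8, the immunoproteasome's replacement for the catalytic subunit PSMB5, gave 271.5, 208.1 and 292 in controls and 568.4, 597.8 and 279.1 in Dobermans. K and L were above all other hearts, while R lay within the control range. The change was 0.81 ± 0.27 (limma, adjusted p 0.0460); the other tested probe sets of PSMB8 had changes of 0.31 ± 0.22 and 0.47 ± 0.39 and did not pass. PSMD5, which acts in assembly of the cap's base, gave 185.5, 188.2 and 125.2 in controls and 250.4, 351 and 342.7 in Dobermans, and rose by 0.86 ± 0.25 (limma, adjusted p 0.0264). PSMG3, a further assembly chaperone, gave 209.6, 260.7 and 227.1 in controls and 319.9, 378.6 and 483.8 in Dobermans, and rose by 0.71 ± 0.24 (limma, adjusted p 0.0453). For both genes the 3 Dobermans were above all 10 other hearts.

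The Doberman results rest largely on the libraries with high GAPDH ratios. With L and R left out, leaving K as the only Doberman and assuming that it varies like the other groups, the median change was -0.03, and only PSMG2 (-0.80, limma adjusted p 0.0252) and PSMB8 (1.11, limma adjusted p 0.0497) passed. PSMA6 then had a change of -0.64 (adjusted p 0.0819), PSMC5 -0.60 (0.131), PSMB2 -0.43 (0.193), PSMA2 -0.31 (0.306), PSMD11 -0.35 (0.352) and PSMD5 0.57 (0.365), all by limma. With the GAPDH ratio as a covariate, or with only Dobermans and controls in the fit, none of the 38 passed. Quantile normalization ended the calls of PSMB8, PSMD5 and PSMG3, as did median centring and array weights. Centring each array on its median signal gave 17 that fell and none that rose, while it moved the median of all genes to -0.40. Without K, 18 fell and 6 rose, and without L, 4 fell and 1 rose. The shares of all genes called in these fits are not given beside these counts. Leaving out 1 heart in turn, PSMB8 passed only without Doberman R or Boxer 4, and PSMG3 only without Doberman K. PSMA2 was lost without control P1 or Doberman L, PSMD11 without P1, P9 or L, and PSMD5 without P1, P9, L or R. The part of RNA quality in these decreases was not tested. In tissue RNA, fewer cells of a type and less RNA per cell cannot be told apart.

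**Figure D2:**
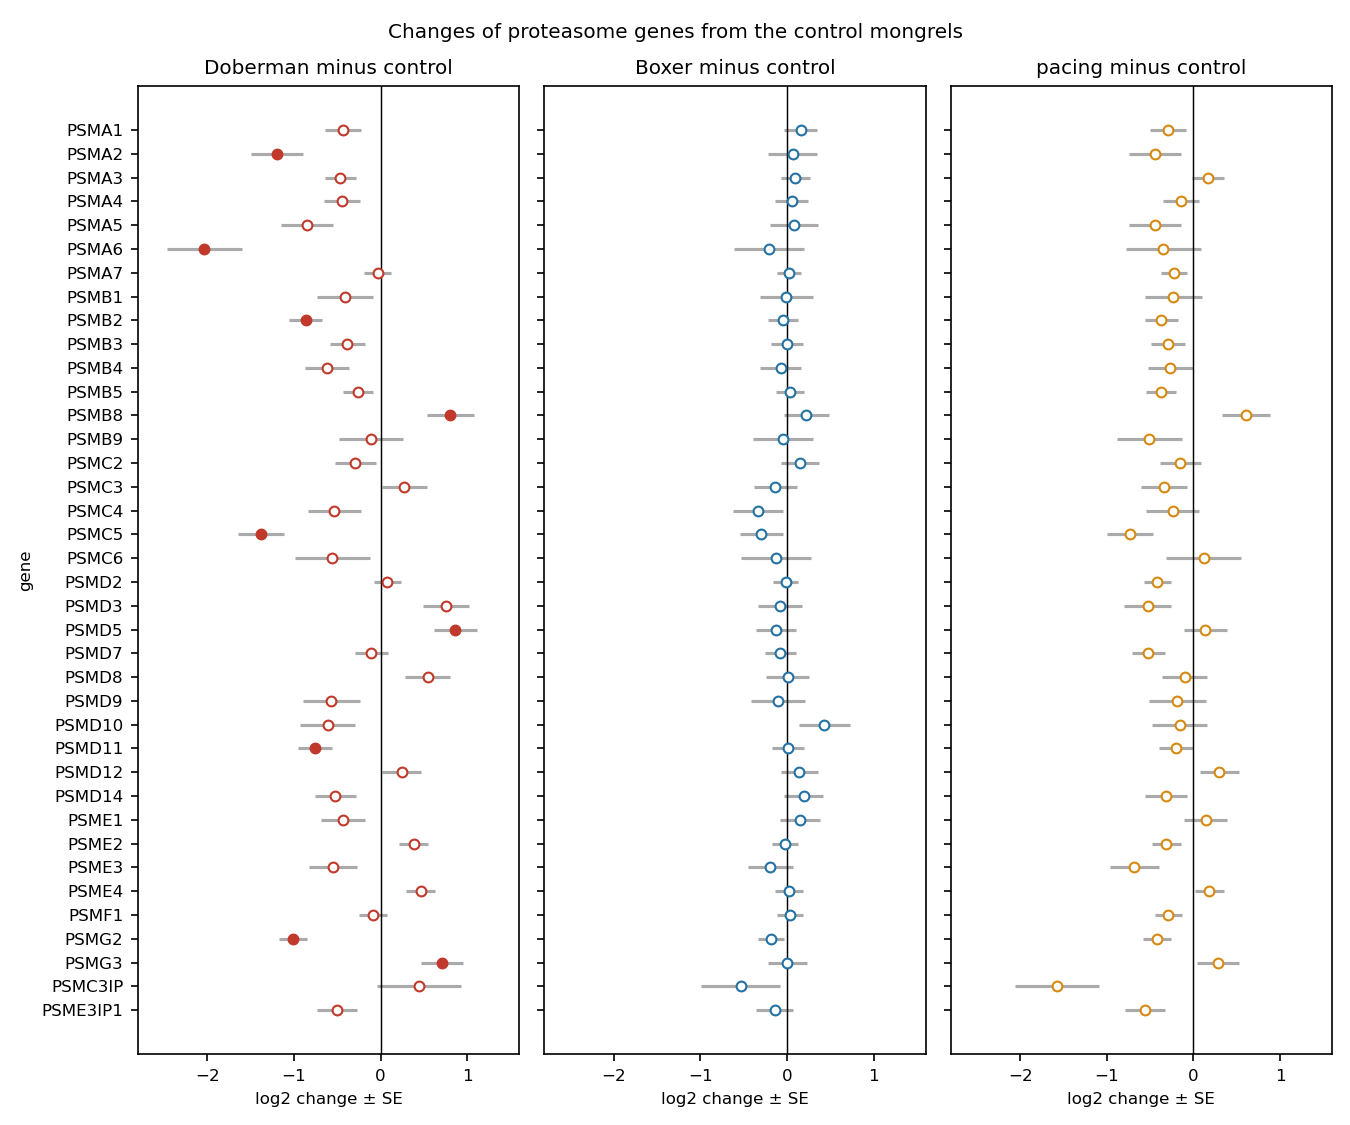
Points show the log2 change of each tested proteasome gene from the control mongrels with its SE, in Dobermans, Boxers and paced hearts; calls are marked. Doberman changes spread from -2.04 (PSMA6) to 0.86 (PSMD5), Boxer changes cluster around 0, and 30 of 38 paced changes lie left of 0.

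Boxer hearts, although labelled with the same disease, showed no called change in the proteasome genes against control mongrels. None of the 38 passed in either direction, against 0.0191% of all genes that rose and 0.0382% that fell. None had an unadjusted p under 0.05, beside 1058 of the 14302 tested probe sets, and the smallest adjusted p was 0.818 (limma). Without the Dobermans in the fit none passed either, beside 0.324% and 0.477% of all genes. The median change was -0.00, beside -0.02 over all genes. PSMA6 gave 2215.6 to 2481.5 in the 4 Boxers and PSMA2 4197.9 to 4310.7, so Boxers were just below the controls for PSMA6 and just above them for PSMA2. The smallest p-values were those of PSMD10, PSMG2 and PSMC5, none passing. PSMD10 gave 834, 810.2 and 1203.6 in controls and 1183.9 to 1353.3 in Boxers, PSMG2 gave 3225.4 to 3647.5 in Boxers and PSMC5 1744.4 to 1976.7. PSMG2, PSMC4, PSMC5 and PSME3 were below the control range in all 4 Boxers, and PSMD14, the cap's deubiquitinating enzyme, above it. Groups that did not overlap were thus 2 higher and 5 lower of 38, beside 7.94% and 9.77% of all genes.

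Paced hearts had slightly lower signals of most proteasome genes. In the fit of all 4 groups none of the 38 passed, against 4.05% of all genes that fell and 5.19% that rose. At an unadjusted p under 0.05, 8 of the 38 were lower and 1 higher, beside 4100 of the 14302 tested probe sets in either direction. Of the 38 changes, 30 were negative. The median change was -0.29, beside -0.04 over all genes, with -0.29 in the core, -0.24 in the cap's ATPases and -0.19 in its other proteins. With quantile normalization it was -0.15, beside -0.06 over all genes, so most of the gap to all genes was lost. In 18 of 38 genes (47.4%) all 3 paced hearts lay below all 3 controls, beside 22.6% of all genes; in 2 genes all 3 lay above, beside 19.6%.

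PSME3, an activator found in the nucleus, gave 1397.5, 1258.3 and 1467.3 in controls and 929.4, 826.7 and 795.5 in paced hearts. The groups were well apart, and the change was -0.68 ± 0.28 (limma, adjusted p 0.126, not passing). PSMC5 gave 1686.4, 1277.2 and 1227.4 in paced hearts, below all controls (-0.73 ± 0.27, limma adjusted p 0.0873). PSMD7, a subunit of the lid, gave 2576.1, 1756.7 and 1980.4 in controls and 1528.1, 1371.2 and 1426.8 in paced hearts, again without overlap (-0.52 ± 0.19, limma adjusted p 0.0880). PSMD2, a docking subunit of the cap for ubiquitin receptors, gave 3936.1, 4139.3 and 3525.4 in controls and 3137, 2868 and 2658.8 in paced hearts (-0.42 ± 0.16, limma adjusted p 0.0941). PSMC3IP, the meiotic protein matched by letters only, had the smallest adjusted p of the genes counted (-1.57 ± 0.49, 0.05005, limma). It was dim in paced hearts, with 35.2, 19.8 and 86.4, below the controls at 179.2, 139.5 and 146.3. Its highest signal was 489, in Doberman L. A secondary probe set of PSMA6 did pass, with a change of -1.02 ± 0.23 (limma, adjusted p 0.0128), whereas the brighter one had -0.35 ± 0.43.

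The threshold in the paced comparison depends on the Dobermans, whose spread enters the shared estimate. The median SD of the proteasome genes on the log2 scale was 0.452 in Dobermans and 0.153 in controls, 0.117 in paced hearts and 0.105 in Boxers. In a fit of the other 10 arrays, chosen after the data were seen, 12 of 38 fell in paced hearts (31.6%) and 1 rose, beside 15.7% and 12.9% of all genes. Those that fell were the core subunits PSMA2, PSMA5, PSMB2 and PSMB5, the cap's PSMC5, PSMD2, PSMD7 and PSMD14, PSME3, PSMG2 and the binding proteins PSMC3IP and PSME3IP1, and PSMB8 rose. The largest among the subunits were PSMC5 (-0.73, limma adjusted p 0.00271) and PSME3 (-0.68, 0.00195, limma), and PSMB8 changed by 0.61 ± 0.19 (0.0305, limma). With quantile normalization as well, 4 fell (PSME3, PSMC5, PSMA2 and PSME3IP1) and 1 rose (PSMA3, 0.34). Leaving out 1 heart in turn in the fit of 10 arrays gave 7 (without control P1) to 14 (without control P9) that fell. PSMB8 lost its call in 5 of these 10 fits, those without control P1 or P4 or any paced heart, as did PSMB2, and PSMD14 lost it in 7. PSMC5, PSME3, PSMA2, PSMA5, PSMB5 and PSMC3IP lost it in none. Centring on array medians in the fit of 13 arrays gave 16 that fell and none that rose, while it moved the median of all genes to -0.55; that of the proteasome genes was then -0.80.

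**Figure D3:**
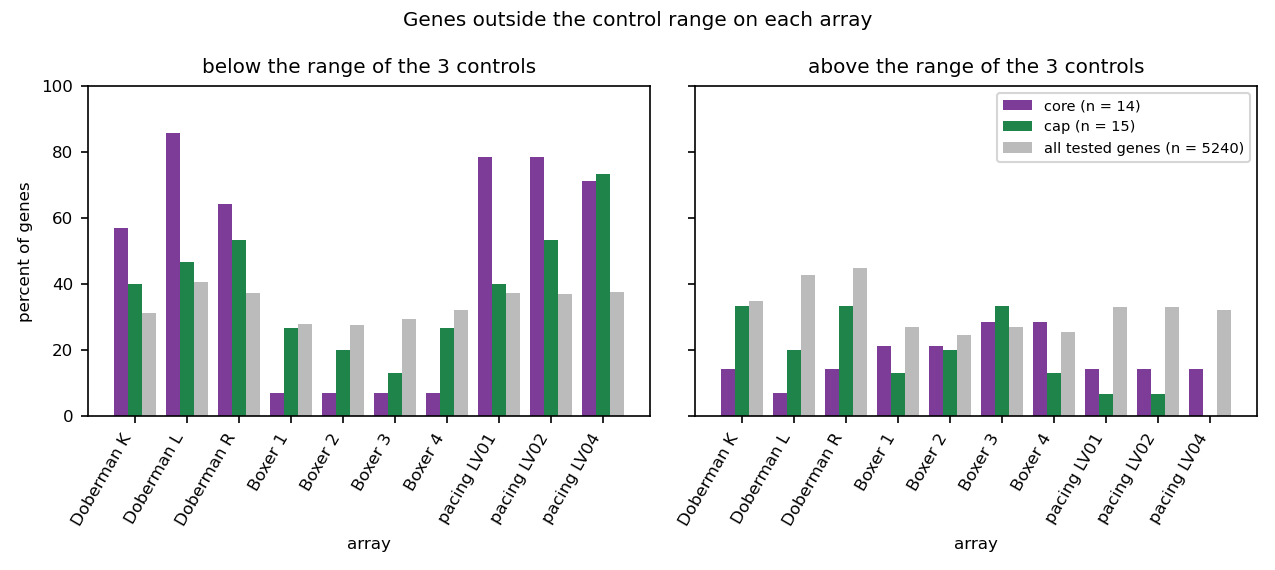
Bars show the percentage of genes whose deposited signal lay below or above the range of the 3 control arrays, for each Doberman, paced and Boxer array. They cover the 14 core genes, the 15 cap genes and all genes tested. Paced hearts had 71.4% to 78.6% of the core genes below that range, and each Boxer 7.14%.

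Each heart was also counted alone against the range of the 3 controls. These counts used the signals as deposited and were not repeated with another scaling. Quantile normalization moved the paced median change of the proteasome genes from -0.29 to -0.15, so the counts may depend on scaling. The 3 paced hearts had 23, 25 and 26 of the 38 genes below it (60.5% to 68.4%), beside 37.0% to 37.6% of all genes. Dobermans L and R had 23 each, beside 40.6% and 37.5% of all genes, and K had 16 (42.1%), beside 31.3%. The Boxers had 7 to 9 below it (18.4% to 23.7%), beside 27.7% to 32.3% of all genes. Of the 14 core genes, Doberman K had 8 below, L had 12 and R had 9, each paced heart had 10 or 11, and each Boxer had 1. As shares of the core these were 57.1% in K, 85.7% in L, 64.3% in R, 71.4% to 78.6% in paced hearts and 7.14% in each Boxer, to be read beside the shares of all genes just given. The median difference of the core from the control mean was small in K (-0.15) and larger in L (-0.90) and R (-0.55).

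Dobermans were also compared with Boxers directly, and 11 of 38 genes fell and 4 rose, against 17.4% and 16.8% of all genes, and 6 of the 14 core genes were among those that fell. They comprised 5 of the 7 alpha subunits, PSMA1, PSMA2, PSMA3, PSMA5 and PSMA6, and the beta subunit PSMB2. PSMA5 gave 2076.2, 633.5 and 1241.5 in Dobermans and 2226.2 to 2319.7 in the 4 Boxers (-0.93 ± 0.28, limma adjusted p 0.0230). PSMD10, a chaperone of the cap's base also known as gankyrin, gave 992.2, 309 and 715.2 in Dobermans and 1183.9 to 1353.3 in Boxers (-1.04 ± 0.30, limma adjusted p 0.0185). For both genes K was the Doberman closest to the Boxers, and the groups did not overlap.

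PSMG2 (-0.83), PSMC5 (-1.09), PSMD11 (-0.76) and PSMD14 (-0.71) also fell, and PSMD5 (0.99), PSMD3 (0.83), PSMG3 (0.71) and PSME4 (0.44) rose against Boxers. PSMD3, a subunit of the lid, gave 1103.7, 911.6 and 1709.1 in Dobermans and 559.1 to 852.6 in Boxers, with every Doberman above every other heart. With L and R left out none of these 15 calls held, and none held with the GAPDH ratio as a covariate; median centring gave 22 that fell and none that rose. Leaving out 1 heart in turn gave 7 (without Doberman L) to 19 (without Doberman K) that fell and 1 (without Boxer 1) to 6 (without K) that rose; PSMG2, PSMC5, PSMA6, PSMA2, PSMB2, PSMD11 and PSMD5 passed in each of these fits, and PSME4 in 2 of 13. Quantile normalization ended 5 of the 15 calls, those of PSMA1, PSMA3, PSMD14, PSMD5 and PSMG3. A further probe set of PSMD11 rose against Boxers (0.94 ± 0.18, limma adjusted p 0.00474). The dimmer tested probe sets of PSMA6 had -0.37 and -0.28 without passing. That of PSMA3 had 0.23, that of PSMD10 -1.07, and those of PSME4 0.21 and -0.58, none passing. With the median over probe sets PSMA3, PSMA6, PSMD10 and PSME4 lost their calls, and PSMD11 changed sign. Median centring moved the median of all genes to -0.47, and that of the proteasome genes to -0.88. Breed and every other difference between these groups cannot be told apart.

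Between Dobermans and paced hearts, 5 of 38 genes rose and 3 fell (13.2% and 7.89%), against 13.6% and 11.1% of all genes, so neither share was above the background. PSMD3 rose by 1.28 ± 0.27 (limma, adjusted p 0.00550) against 427, 618.8 and 425.7 in the paced hearts. PSME2, PSMD2, PSMD5 and PSMC3IP also rose, and PSMA6 (-1.69), PSMA3 (-0.63) and PSMG2 (-0.59) fell. PSMA3, an alpha subunit, gave 1509.6, 1223.2 and 2050.2 in Dobermans and 2370.8, 2465 and 2430 in paced hearts, without overlap. PSMD2 gave 4311.8, 3523 and 4455 in Dobermans, above all paced hearts. Leaving out 1 heart in turn, PSMD3, PSME2, PSMC3IP and PSMA6 passed in each fit, while PSMD5 was lost in 11 of 13, PSMD2 in 6, PSMA3 in 4 and PSMG2 in 3; without Doberman K, 8 rose and 10 fell, and without L, PSMA6 was the sole gene that fell. With Dobermans L and R both left out, PSMA6 (-0.30, limma adjusted p 0.276), PSME2 (0.47, 0.0610), PSMD5 and PSMG2 lost their calls. With the GAPDH ratio as a covariate 1 of the 8 calls was left, PSMA3, and with only these 2 groups in the fit none. PSMA6 had 0.22 with the median over its probe sets. Median centring gave 4 that rose and 1 that fell. Another probe set of PSMA3 rose by 0.95 ± 0.29 (limma, adjusted p 0.0326), opposite to the brighter one. The direction of PSMA3 therefore depends on the probe set.

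Boxers and paced hearts had no call in the 4-group fit, against 5.84% of all genes higher in Boxers and 8.38% lower. In 19 of 38 genes (50%) every Boxer lay above every paced heart, beside 21.9% of all genes, and in none did every Boxer lie below, beside 19.9%. At an unadjusted p under 0.05, 7 of the 38 were higher, beside 4809 of the 14302 tested probe sets in either direction. PSMD2, PSMB5 and PSMD7 had the smallest p. PSMD2 gave 3511.6 to 4075 in Boxers and PSMD7 1827.7 to 2207.9, above all paced hearts. Without the Dobermans 15 rose in Boxers (39.5%, beside 17.3% of all genes), among them PSMA2, PSMA5, PSMB5, PSMD14 and PSME3. With quantile normalization as well 5 rose: PSMA2, PSMA5, PSMD10, PSMD14 and PSME3. Leaving out 1 heart in turn without the Dobermans gave 8 (without paced heart LV02) to 15. Median centring in the 4-group fit gave 24, while it moved the median of all genes to 0.63. That of the proteasome genes was then 0.85.

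Of the catalytic subunits, PSMB5 and its replacement PSMB8 could be compared. PSMB6 and PSMB7, and PSMB10, which takes the place of PSMB7, were not analysed here. PSMB5 gave 5317.5, 6060.3 and 5882.7 in controls, 5621.2, 5269.2 and 3702.8 in Dobermans, 4592.2, 4364.5 and 4317.8 in paced hearts, and 5587.3 to 6169.8 in Boxers. All paced hearts lay below all controls; of the Dobermans, L lay just below them and R far below. PSMB8 gave 383.1, 393.6 and 413 in paced hearts, above all controls, and 267.7 to 392.4 in Boxers.

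The difference between PSMB8 and PSMB5 on the log2 scale within an array was -4.41 ± 0.30 in controls, -3.34 ± 0.28 in Dobermans, -3.43 ± 0.10 in paced hearts (SD, n = 3 each) and -4.22 ± 0.26 in Boxers (SD, n = 4). It shows unequal change of 2 probe sets, not which subunit was more abundant. It was higher by 1.07 in Dobermans and by 0.98 in paced hearts than in controls, with each heart above each control, and the exact two-sided permutation p was 0.1 in both, the smallest that 3 against 3 arrays allow. Against Boxers the Dobermans were higher by 0.88 (exact permutation p 0.0286, the smallest possible), and Boxers were lower than paced hearts (-0.79, exact permutation p 0.0571). Boxers and controls differed by 0.19 (exact permutation p 0.514), and Dobermans and paced hearts by 0.08 (exact permutation p 0.7). Adjusted over the 6 comparisons none was below 0.15. With quantile normalization the Doberman and paced differences from controls were 0.59 and 0.55. The size of the difference also depends on the probe sets. The brighter probe set of PSMB5 changed by -0.26 in Dobermans and -0.38 in paced hearts against controls. Its dimmer one had 0.25 ± 0.30 and 0.07 ± 0.30, without passing. In paced hearts the other tested probe sets of PSMB8 had 0.26 ± 0.22 and 0.45 ± 0.39, beside 0.61 on the one used.

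PSMB9, another immunoproteasome subunit and the neighbour of PSMB8 in the dog genome with TAP1 between them, had no called change in the 6 comparisons. It gave 655.2, 763.3 and 444.8 in controls, 1034.1, 456.2 and 368.2 in Dobermans, 382.8, 299.7 and 650.4 in paced hearts and 470.1 to 732 in Boxers. All groups overlapped, and Doberman K alone was above the rest. PSMB8 and PSMB9 are also made by leukocytes. The summed signal of 6 tested leukocyte markers was 4390.6 to 6264.7 in Dobermans, 4854.3 to 6218 in controls, 4570.4 to 5310.9 in paced hearts and 5558.3 to 6463.2 in Boxers, and 1 of the 6, CD3E, rose in Dobermans. CD3E gave 313.8, 414.5 and 339.7 in controls, 637.6, 1192.7 and 926.9 in Dobermans and 26.3, 47.9 and 29.6 in paced hearts. In paced hearts CD3E fell and NKG7, a marker of cytotoxic lymphocytes, rose, from a mean of 108 to 628 (2.37 ± 0.39, limma adjusted p 0.00309). The other 4 did not pass there: IL2RG had 1.67, ITGB2 0.63, LAPTM5 -0.15 and LCP1 -0.34. The part of leukocytes in the PSMB8 values was not tested.

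**Figure D4:**
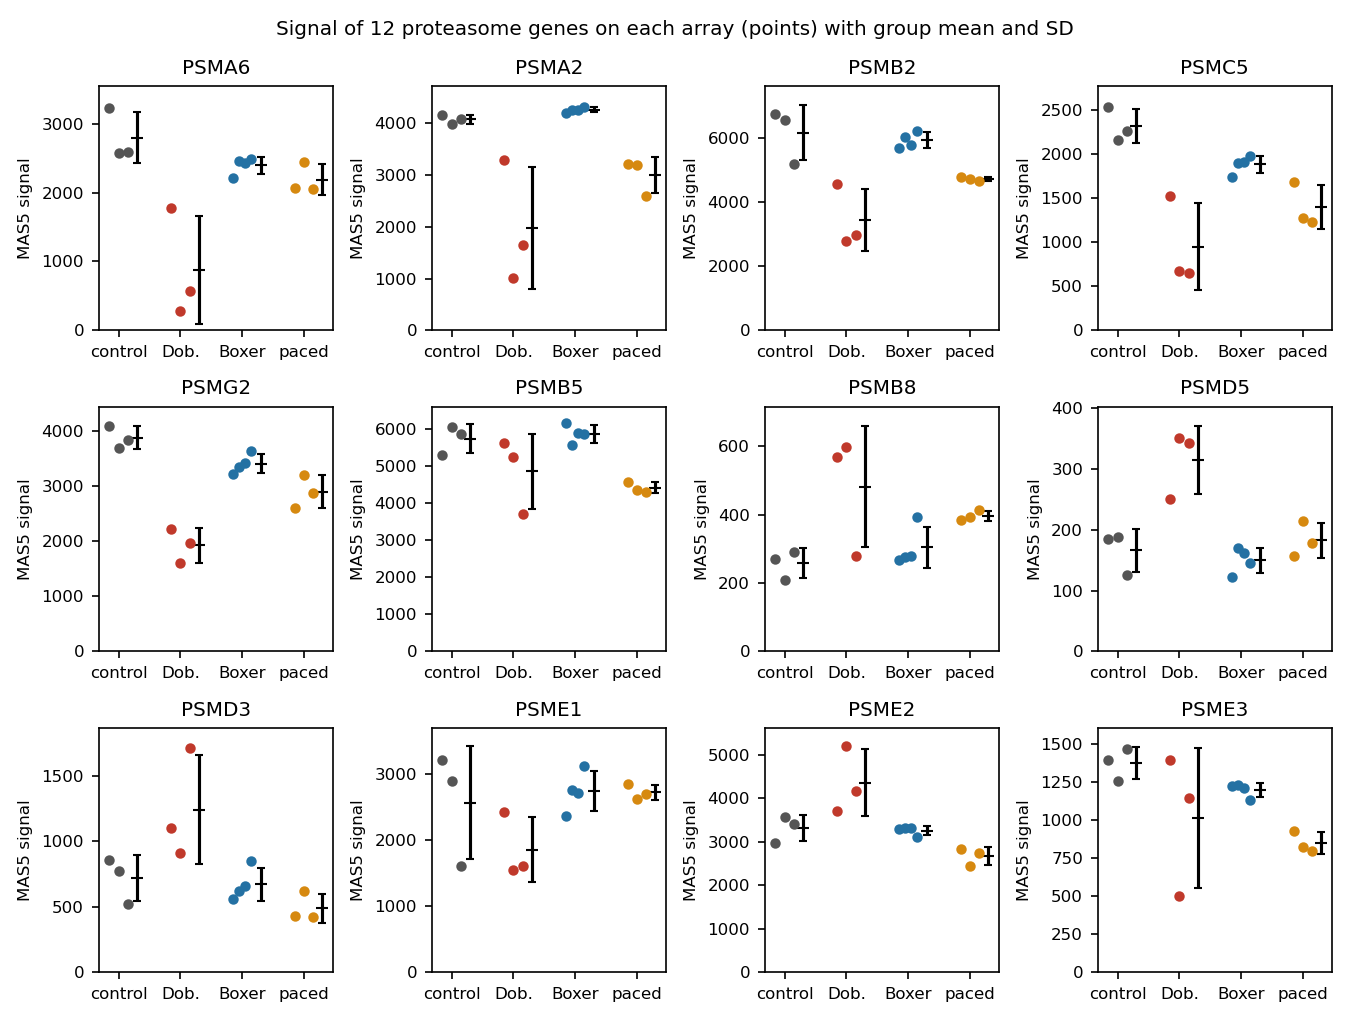
Points show the deposited signal (y axis, linear from 0) of 12 proteasome genes on each array by group, with the group mean and SD. PSMG2 sits lowest in all 3 Dobermans, PSMA6 and PSMA2 are lowest in Dobermans L and R, and PSME3 and PSMB5 are low in all 3 paced hearts.

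The activators varied one by one. PSME1 and PSME2, the interferon-induced pair that forms an activator ring and whose genes lie close together, gave 3200.1, 2891.3 and 1601.3 (PSME1) and 2977.4, 3560.3 and 3408.5 (PSME2) in controls. In Dobermans they gave 2420.5, 1539.1 and 1600.5 (PSME1) and 3695.9, 5203.7 and 4158.9 (PSME2). Every Doberman was above every other heart for PSME2 and none was above controls P1 and P4 for PSME1, but neither change passed (-0.43 ± 0.25 for PSME1 and 0.38 ± 0.16 for PSME2). In paced hearts PSME1 gave 2612.8 to 2843.7 and PSME2 2439.1 to 2832.8, below all controls for PSME2. A secondary probe set of PSME2 rose in Dobermans (1.10 ± 0.29, limma adjusted p 0.0191), and the remaining one had -0.20 ± 0.39. In paced hearts the direction of PSME2 depends on the probe set. The secondary one gave 214, 197.3 and 179.9, above controls at 123.5, 134.6 and 154.7 (0.47 ± 0.29, not passing). The remaining one had 0.38 ± 0.39.

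PSME3 gave 1394.7, 502.5 and 1147 in Dobermans, so only L was far below the controls. PSME4, an activator with roles in chromatin, gave 1397.6, 1594 and 1490.6 in controls, 1718.1, 2182.4 and 2346 in Dobermans, 1817.4, 1468.8 and 1822.4 in paced hearts and 1449.1 to 1640.7 in Boxers. The Dobermans were above all controls and Boxers but overlapped the paced hearts, and the change from controls was 0.46 ± 0.17 (limma, adjusted p 0.0563). Dimmer tested probe sets of PSME4 had -0.02 ± 0.29 and -0.91 ± 0.44 against controls, neither passing. The direction of PSME4 in Dobermans therefore depends on the probe set. The inhibitor PSMF1 gave means of 2520 ± 136 in controls, 2368 ± 156 in Dobermans, 2074 ± 312 in paced hearts (SD, n = 3 each) and 2585 ± 198 in Boxers (SD, n = 4), and its changes did not pass.

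Probe sets of a gene often disagreed. Of the 11 proteasome genes with 2 or more tested probe sets, 6 had changes of both signs between Dobermans and controls, and 5 had called and uncalled probe sets. PSMC2, an ATPase, had -0.29 ± 0.24 on the brighter probe set and -1.82 ± 0.49 on the other (limma, adjusted p 0.0207). The 3 tested probe sets of PSMA6 had -2.04, -0.75 and -0.60, all negative, and the first passed. Of the 39 probe sets used, 11 carry the suffixes that Affymetrix gives to probes shared by several transcripts, those of PSMA3, PSMB5, PSMB8 and PSMC5 included.

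**Figure D5:**
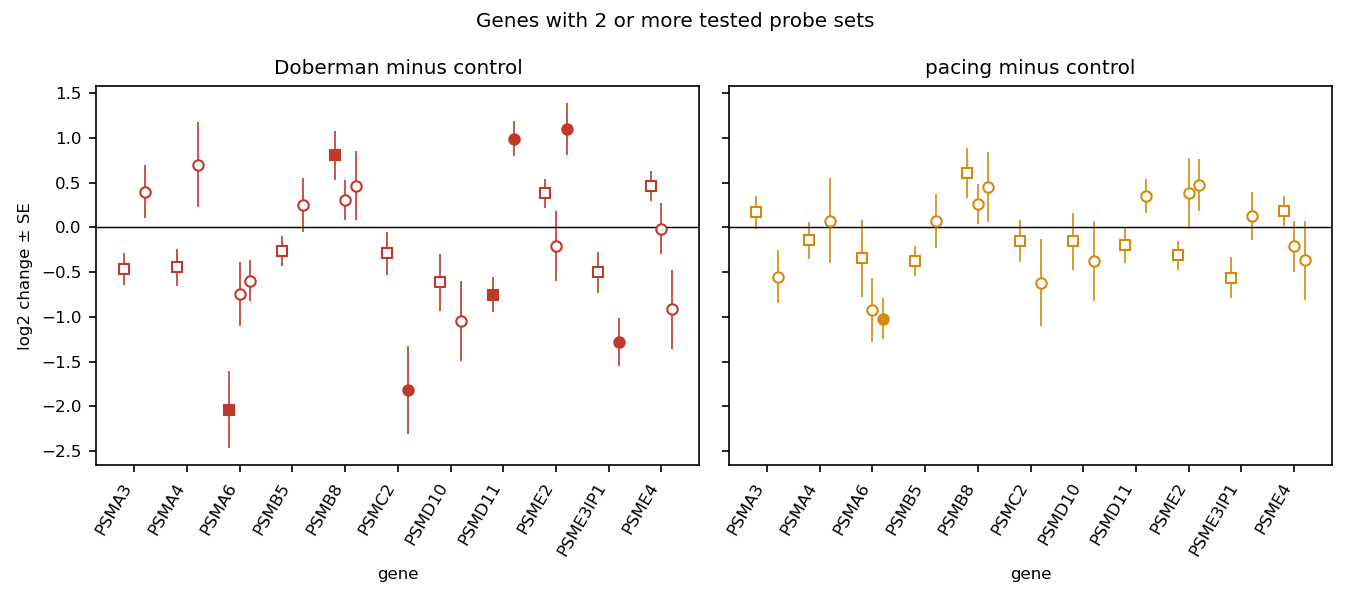
Points show the log2 change with its SE of each tested probe set of the 11 genes that have 2 or more, by comparison with the control mongrels. In Dobermans the probe sets of PSMD11 lie on opposite sides of 0 (-0.75 and 0.99), and those of PSMA6 all lie below it.

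Genes that work with the proteasome changed in few cases. Of 30 listed partners and regulators 14 were tested, and in Dobermans 1 rose and 1 fell, with a median change of -0.06. NFE2L1, the transcription factor that raises proteasome genes when proteasome activity is short, gave 1944.9, 1965.9 and 2493.4 in controls and 3436.9, 6204.1 and 3589.7 in Dobermans (1.00 ± 0.24, limma adjusted p 0.0149). Each Doberman was above each other heart; without L and R the change was 0.69 (limma, adjusted p 0.169). ZFAND5, which binds ubiquitin and the proteasome, gave 4001.8, 4013.3 and 4146.5 in controls and 2646.3, 880.7 and 2143.5 in Dobermans (-1.24 ± 0.30, limma adjusted p 0.0149). Without L and R the change was -0.61 and did not pass (limma, adjusted p 0.0797).

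None of the 14 passed in Boxers or paced hearts. VCP, the ATPase that extracts ubiquitinated proteins for the proteasome, gave 5137.7, 4253.3 and 4046.7 in controls and 3375.3, 2907.4 and 1841.8 in paced hearts, and missed the threshold (-0.76 ± 0.24, limma adjusted p 0.0527). Of 7 tested genes of ubiquitin and muscle ubiquitin ligases, UBB, a ubiquitin precursor (-0.67 ± 0.22, limma adjusted p 0.0392), and FBXO40, a muscle ligase (-2.38 ± 0.72, limma adjusted p 0.0316), fell in Dobermans. FBXO40 gave 1604.5 to 2323.4 in controls; K (1509.3) lay just below them, and L (58.5) and R (392.3) far below. Without L and R neither passed (UBB -0.36, limma adjusted p 0.405, and FBXO40 -0.29, 0.659). None of the 7 passed in the other hearts.

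Of 6 tested genes of antigen processing, IRF9, an interferon signalling factor, rose in Dobermans (0.59 ± 0.16, limma adjusted p 0.0241) and PDIA3, a chaperone of antigen loading, fell (-2.52 ± 0.64, limma adjusted p 0.0172). IRF9 gave 731.2, 794 and 693.3 in controls, 1282.7, 1090.2 and 995.1 in Dobermans and 960.5 to 1021.1 in paced hearts, which were thus above all controls without passing. The PDIA3 signal of K (726.9) was far above those of L (34.8) and R (114.4), beside 874.6 to 1127.1 in controls. Without L and R, PDIA3 lost its call (-0.39, limma adjusted p 0.434) and IRF9 kept it (0.78, 0.0409). None of the 6 passed in Boxers or paced hearts.

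Markers of heart muscle were read to check the labelled tissue. The summed signal of 11 tested cardiomyocyte markers was 229526 to 457636 in Dobermans, 210708 to 309465 in controls, 213749 to 240503 in Boxers and 186196 to 208245 in paced hearts, where it lay below all controls. LDB3, 1 of the 11, had group means of 277 to 462 and adds little to these sums. Against controls, 1 of the 11 fell in Dobermans and 0 rose, with a median change of 0.43. In Dobermans 3 of 7 fibroblast markers also rose, 1 of 8 macrophage markers rose and 1 fell, and none of 4 endothelial markers passed. In paced hearts 2 of the 4 endothelial markers fell and 1 of the 7 fibroblast markers rose against controls, and in Boxers no marker of these lists passed. Compared with Boxers, 5 of the 11 cardiomyocyte markers rose in Dobermans and 1 fell, beside 16.8% and 17.4% of all genes. Compared with paced hearts, 7 rose in Dobermans and 0 fell, beside 13.6% and 11.1% of all genes. Summed macrophage signals were 2215.7 to 8568.6 in Dobermans, 2203.5 to 4394.5 in controls, 3464.9 to 9257.1 in Boxers and 2590.1 to 3296.9 in paced hearts. Summed fibroblast signals were 20536.4 to 30606.9 in Dobermans, 12905.6 to 20998.5 in controls, 18510.2 to 30824.2 in Boxers and 14162.3 to 17214 in paced hearts, so that paced hearts lay within the control range for both. The part of cell makeup in the lower proteasome signals was not tested.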

How the data were processed

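The members and all gene lists were chosen with earlier results of these data known. Total RNA was hybridised to Affymetrix canine arrays, and the authors deposited 1 signal intensity per probe set, made with MAS5 per the submitters' processing notes; the version is not given in the sources used here. The deposited intensities have a trimmed mean near 500 on each array (2% removed at either end), so arrays were compared as deposited. Gene symbols are those of the array annotation. Of 23836 probe sets without the 77 controls, 10549 carried 1 symbol. Groups were taken from the sample titles.

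Signals were analysed as log2(signal + 16). Probe sets at or above the 40th percentile of the mean log2 value (6.95, a signal of about 108) were tested, 14302 in all. limma 3.58.1 in R 4.3.3 fitted 4 group means with trended moderation (9 residual degrees of freedom), with Benjamini-Hochberg adjustment over all tested probe sets per comparison at 0.05; shares over genes use 5240 genes by their brightest probe set. The number of arrays limits the precision. The script was tested on simulated data. PSMB8 minus PSMB5 was compared by an exact permutation test. Any gene of the rule could be named; values per heart were given for the catalytic subunits, the activators and up to 8 called genes per direction, or otherwise the 3 of smallest p. Alternatives were quantile normalization, median centring, other pseudocounts and filters, 2-group fits, array weights, the GAPDH covariate, the median over a gene's probe sets and hearts left out. Gene neighbours came from RefSeq's UU_Cfam_GSD_1.0, which served for names and order. Replicates carry animal names, not shared numbers.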

Additional observations from a re-analysis of the deposited data

Results flagged for a closer look

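In 5 of 38 proteasome genes 1 Boxer stood apart from the other 3 by Dixon's criterion, which flags about 1 in 20 such groups by chance. PSMB8, the immunoproteasome subunit, gave 392.4 in Boxer 4 against 267.7 to 278.4 in the others. PSMC6, a cap ATPase, gave 59.3 in Boxer 4 against 129.1 to 142.2. PSME3IP1, which binds PSME3, gave 767 in Boxer 4 against 966.2 to 1003.1. PSMD11 gave 2012.4 in Boxer 3 against 1726.4 to 1749.9, and the inhibitor PSMF1 gave 2880.7 in Boxer 2 against 2477.3 to 2490.7. Boxer 4 accounts for 3 of the 5.

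For 8 genes that passed in Dobermans against controls, the change from controls in Dobermans differed from that in Boxers by limma's test of Doberman minus Boxer. The difference of the changes on the log2 scale was -1.82 for PSMA6, -1.27 for PSMA2, -1.09 for PSMC5, -0.83 for PSMG2, -0.82 for PSMB2 and -0.76 for PSMD11. It was 0.99 for PSMD5 and 0.71 for PSMG3. Both changes use the same controls, so each difference equals the direct comparison of the breeds and is no further evidence. None of the 8 passed between the breeds with Dobermans L and R left out.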

How the results depend on the processing

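Counts are of the 38 proteasome genes, given as genes that rose and genes that fell where both moved. The share of all genes called moves with the fit too. For paced hearts against controls, 4.05% of all genes fell with all 4 groups and 15.7% without the Dobermans. Most counts under other settings, here and above, are given without such a share. They cannot be read as results about the proteasome genes alone. Under quantile normalization, 1 gene fell in paced hearts against controls, 6 fell in Dobermans against paced hearts and 1 rose in Boxers against paced hearts. Median centring gave 0 and 17 for Dobermans against controls, 16 that fell in paced hearts against controls, 0 and 22 for Dobermans against Boxers, 1 that fell against paced hearts and 24 that rose in Boxers against paced hearts. In the order given, it moved the median of all genes to -0.40, -0.55, -0.47, 0.06 and 0.63. In paced hearts against controls 1 fell with pseudocount 1, 1 rose and 1 fell without the filter, and 1 fell with the median over probe sets, by which 1 also rose in Boxers against paced hearts. Without the filter 1 rose in Dobermans against controls and 1 fell in Boxers against paced hearts; the 70th percentile filter left 3 that rose in Dobermans against paced hearts. Fits of the 2 compared groups gave 0 and 0 for Dobermans against controls and against paced hearts, 1 and 10 for paced hearts against controls, 1 and 6 for Dobermans against Boxers, and 13 that rose in Boxers against paced hearts. Array weights gave 1 that rose in Dobermans against controls, 1 and 11 in paced hearts, 6 that fell in Dobermans against paced hearts and 15 that rose in Boxers against paced hearts. The GAPDH covariate gave 0 and 0 for Dobermans against controls and against Boxers, 4 that fell in paced hearts, 0 and 1 for Dobermans against paced hearts, and 5 that rose in Boxers against paced hearts. Without Dobermans L and R the counts were 1 and 1 for Dobermans against controls, 1 and 12 for paced hearts, 0 and 0 against Boxers, 1 that fell against paced hearts, and 15 that rose in Boxers against paced hearts. Without all Dobermans they were 1 and 12, and 15; adding quantile normalization they were 1 and 4, and 5. The causes were not tested.

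Leaving out 1 heart in turn gave, for Dobermans against controls, 0 to 6 that rose and 4 to 18 that fell, against Boxers 1 to 6 and 7 to 19, and against paced hearts 3 to 8 and 1 to 10. It gave 0 to 7 that fell in paced hearts against controls and 0 to 6 that rose in Boxers against paced hearts. PSMB8 minus PSMB5 ranged from 0.02 to 0.29 for Boxers against controls, 0.89 to 1.22 for Dobermans and 0.81 to 1.08 for paced hearts against controls, 0.76 to 1.03 for Dobermans against Boxers, -0.92 to -0.72 for Boxers against paced hearts, and -0.034 (without Doberman L) to 0.24 for Dobermans against paced hearts.

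Signs turned in 7 cases. With median centring PSME4 had -0.066 in Dobermans against Boxers and 0.42 in Boxers against paced hearts. With the median over probe sets PSMD11 had 0.12 against controls and 0.089 against Boxers in Dobermans, and PSMA3 had 0.16 and PSMA6 0.22 in Dobermans against paced hearts. The last case is PSMB8 minus PSMB5 without Doberman L. No paired analysis was possible because the hearts carry animal names that no groups share. Signals near the background of the array, such as those of PSMC1, limit what can be compared.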
